A study of Drosophila melanogaster with 3 samples.

Results

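The Hox genes of Drosophila melanogaster lie in a pair of complexes on arm 3R, and the sites of a tagged protein, CG31627, were followed across both. The 8 genes are lab, pb, Dfd, Scr and Antp of the Antennapedia complex and Ubx, abd-A and Abd-B of the bithorax complex. With them were taken all peak summits in their gene bodies and in the sequence between them, with 10 kb beyond Abd-B. The complexes held 28 of the 7717 summits that the submitters kept after filtering on the irreproducible discovery rate (IDR), a measure of whether a peak recurs between replicates, and the 8 genes stand among 18164 annotated ones. The lists with background included put 132 summits of the pooled libraries in the complexes, and 109, 177 and 116 of replicates 1, 2 and 3.

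Chromatin immunoprecipitation and sequencing was done on whole white prepupae, the stage at the onset of metamorphosis, of a line that stably expresses CG31627 with GFP at its C-terminal end. All 3 libraries come from animals of this single genotype, males and females pooled, with no treatment, and the labels give no age and call them biological replicates. The precipitating antibody was against GFP, although one label names it after CG31627 itself. No untagged group is among the samples, so the comparisons are of the Hox complexes with the rest of the genome and of library with library.

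Hox genes encode homeodomain transcription factors that give the segments of the body their identity along the axis from head to tail. Their order on the chromosome follows the order of their domains along the body, and their long introns and the spaces between them hold enhancers, insulators and Polycomb response elements, from which Polycomb group proteins keep the genes silent and trithorax group proteins keep them active. In prepupae they act in the discs and histoblasts that will form the adult, and in nervous system and other tissues. A whole animal mixes cells in which a given Hox gene is on with cells in which it is off, so binding in few cells and weak binding in many cannot be told apart here.

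The DNA under the summits of the Antennapedia complex is shown first, since these are the sites on which the results turn. Each window runs from 50 bases before a summit to 50 bases after it in the Release 6 genome sequence from RefSeq, and is read on the plus strand. Capitals mark matches on either strand to any of 6 motifs: the DNA replication-related element TATCGATA, the core CGATA of the insulator protein BEAF-32, GAGAG of GAGA factor, the core GCCAT of the Polycomb recruiter Pho, the homeodomain core TAATTA, and TGATNNAT, bound by Hox proteins together with their partner Extradenticle. CGATA lies within TATCGATA, so these matches overlap. The first pair are the strongest and the second strongest summits within Antp, both intronic (chr3R:6914511-6914611 and chr3R:6951279-6951379). The third is the summit in lab (chr3R:6674783-6674883), the next lie upstream of bcd (chr3R:6759628-6759728) and Ama (chr3R:6763134-6763234), and the last lies between Dfd and Scr (chr3R:6818713-6818813).
Antp intron, strongest: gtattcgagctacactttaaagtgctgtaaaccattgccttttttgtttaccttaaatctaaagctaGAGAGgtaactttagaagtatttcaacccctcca
Antp intron, second: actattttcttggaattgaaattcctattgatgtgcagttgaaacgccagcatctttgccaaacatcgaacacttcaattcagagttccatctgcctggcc
lab intron: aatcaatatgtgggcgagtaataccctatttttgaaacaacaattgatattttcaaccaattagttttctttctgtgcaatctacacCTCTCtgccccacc
bcd upstream: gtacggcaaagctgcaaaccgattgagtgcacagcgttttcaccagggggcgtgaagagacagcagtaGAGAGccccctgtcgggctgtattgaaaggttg
Ama upstream: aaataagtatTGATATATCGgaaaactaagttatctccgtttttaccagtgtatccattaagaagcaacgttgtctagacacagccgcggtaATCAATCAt
Dfd to Scr: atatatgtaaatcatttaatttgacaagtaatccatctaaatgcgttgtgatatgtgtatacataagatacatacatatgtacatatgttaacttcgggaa

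From the bithorax complex are shown the strongest summit in Ubx (chr3R:16704346-16704446), both summits in introns of the non-coding RNA gene bxd (chr3R:16748687-16748787 and chr3R:16769536-16769636), the strongest of the complex, between bxd and abd-A (chr3R:16798839-16798939), the strongest in the non-coding RNA gene iab8 (chr3R:16869349-16869449), and the one nearest to a Hox start site, in Abd-B (chr3R:16970019-16970119). The first bxd window holds a Pho core on each strand, and the second holds both a homeodomain core and a Hox-Extradenticle match.
Ubx intron: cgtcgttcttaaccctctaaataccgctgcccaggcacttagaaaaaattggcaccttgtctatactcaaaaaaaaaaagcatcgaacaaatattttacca
bxd intron, first: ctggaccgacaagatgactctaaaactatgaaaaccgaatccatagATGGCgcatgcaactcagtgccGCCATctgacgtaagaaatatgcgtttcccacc
bxd intron, second: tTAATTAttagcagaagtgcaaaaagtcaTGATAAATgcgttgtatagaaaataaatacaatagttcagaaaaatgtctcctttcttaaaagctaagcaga
bxd to abd-A: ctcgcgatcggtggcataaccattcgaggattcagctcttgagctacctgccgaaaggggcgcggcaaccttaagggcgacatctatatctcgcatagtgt
iab8 intron: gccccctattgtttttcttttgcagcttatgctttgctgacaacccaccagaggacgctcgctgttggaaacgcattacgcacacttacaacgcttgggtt
Abd-B intron: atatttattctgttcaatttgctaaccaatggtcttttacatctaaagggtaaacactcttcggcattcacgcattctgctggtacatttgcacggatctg

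Below the IDR threshold, summits of the pooled list lay near the start sites of Antp (chr3R:6933070-6933170) and Dfd (chr3R:6791502-6791602), and these windows are given for comparison. For Ubx, whose start site had no summit within 500 bp in any list, the 250 bases upstream of the start site (chr3R:16734427-16734676) are shown on its own, minus strand, with the same motifs in capitals.
Antp start site, pooled list: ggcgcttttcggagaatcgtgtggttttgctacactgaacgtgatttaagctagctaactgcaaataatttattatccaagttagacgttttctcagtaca
Dfd start site, pooled list: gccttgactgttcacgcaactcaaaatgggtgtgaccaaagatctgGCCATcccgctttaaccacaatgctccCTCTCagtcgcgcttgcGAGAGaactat
Ubx upstream: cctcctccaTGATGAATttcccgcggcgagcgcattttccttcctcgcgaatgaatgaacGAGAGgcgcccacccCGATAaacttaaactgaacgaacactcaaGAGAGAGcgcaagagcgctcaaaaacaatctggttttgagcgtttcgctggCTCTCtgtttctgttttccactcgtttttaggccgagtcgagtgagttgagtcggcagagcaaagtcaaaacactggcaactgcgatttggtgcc

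Of the series as a whole, 30000, 28592 and 25547 peaks of replicates 1, 2 and 3 lay on the 6 chromosome arms used, and the pooled list held 27240. Its 7717 strongest by signal were the IDR-thresholded peaks. To compare libraries on an equal footing, the 7717 strongest peaks of each were taken, and these are called its strongest peaks below. No read counts are in the lists, so the depth behind each peak is unknown. Sequence of the complexes was well placed for mapping: 31-base words that occur once in the genome made up 97.9% of the Antennapedia complex and 98.1% of the bithorax complex, against 87.2% of the arms.

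The first question was how densely CG31627 occupied the complexes. The Antennapedia complex, 337802 bp long (chr3R:6661427-6999228), held 14 IDR summits, or 4.14 per 100 kb. The bithorax complex, 325614 bp (chr3R:16656623-16982236), also held 14, or 4.3 per 100 kb, and the rest of the 6 arms 5.77. Among each library's strongest peaks, the Antennapedia complex held 12, 18 and 14 summits in replicates 1, 2 and 3 and the bithorax complex 11, 15 and 16. Every one of these 6 densities lay below that of the rest of the arms, replicate 2 coming nearest in the Antennapedia complex and replicate 3 in the bithorax complex. The log2 ratio to the rest was -0.43 ± 0.30 (SD, n = 3) and -0.44 ± 0.29 (SD, n = 3), lower in 3 of 3 libraries in both complexes (exact sign-flip permutation test, two-sided, p = 0.25 for each, the smallest that 3 libraries allow). Without replicate 1 the bithorax value was -0.28. With length counted in 31-base words that occur once, the ratios were -0.60 and -0.61, further below the rest of the arms.

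How far the density fell short depended on how many peaks were counted. In the whole library lists, background included, the log2 ratios were -0.10 and -0.08, lower in 2 of 3 libraries. With the 3858 strongest peaks of each library the Antennapedia complex held 8, 8 and 9 summits, a log2 ratio of -0.23, and the bithorax complex held 2, 5 and 3, a log2 ratio of -1.60. In each library these strongest peaks were thus fewer in the bithorax than in the Antennapedia complex, which is of nearly the same length. The pooled list, background included, gave 20.4 and 19.3 summits per 100 kb, against 20.3 in the rest of the arms.

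Stretches of this size vary widely. Cut end to end into 392 windows of the length of the Antennapedia complex, the arms held a median of 20 IDR summits per window, with a range of 0 to 60, and 130 windows (33.2%) had 14 or fewer. For the length of the bithorax complex the median over 409 windows was 19, the highest 61, and 147 windows (35.9%) had 14 or fewer. Both complexes lie below the median window and well within the range, as the histogram of windows shows. No window was left out for poor mapping. The arms held 87.2% unique 31-base words, against 97.9% and 98.1% in the Antennapedia and bithorax complexes. The median and the shares with 14 or fewer are thus not those of sequence that maps as well as the complexes.

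**Figure D1:**
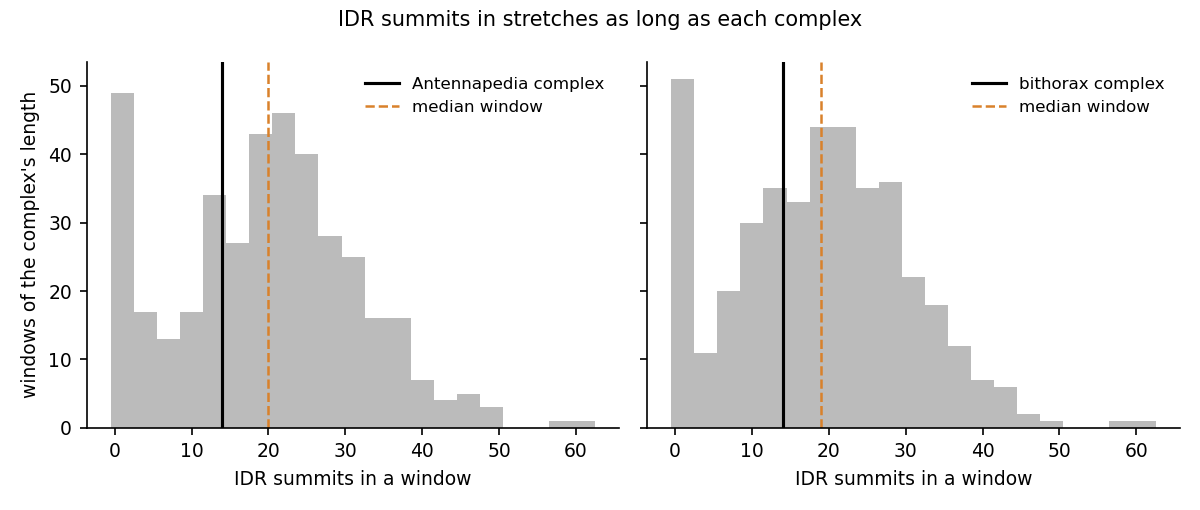
Number of IDR summits (x axis) in end-to-end windows of the 6 arms as long as each complex (y axis, number of windows; left, Antennapedia; right, bithorax). The solid line is the complex, at 14 summits in both panels, and the dashed line the median window, at 20 and 19.

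Other developmental gene complexes gave no common value. The Iroquois complex of homeobox genes held 5 IDR summits in 129578 bp, or 3.86 per 100 kb. The NK homeobox cluster held 5 in 178206 bp, or 2.81 per 100 kb. Their log2 ratios among the strongest peaks were -0.71 ± 0.34 and -0.86 ± 0.15 (SD, n = 3). The Enhancer of split complex, whose genes answer to Notch, held 6 in 43388 bp, or 13.8 per 100 kb. Its log2 ratio among the strongest peaks was 1.39 ± 0.35 (SD, n = 3). All of these rest on few summits. The Hox values lay between these among the strongest peaks. In the whole library lists, background included, the Iroquois complex lay above the rest of the arms instead, at 0.76, 0.30 and 0.33 in replicates 1, 2 and 3 (log2 ratio). The NK cluster gave -0.74, 0.18 and -0.23 there, and the Enhancer of split complex 1.18, 0.49 and 1.47. No test was made between complexes.

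**Figure D2:**
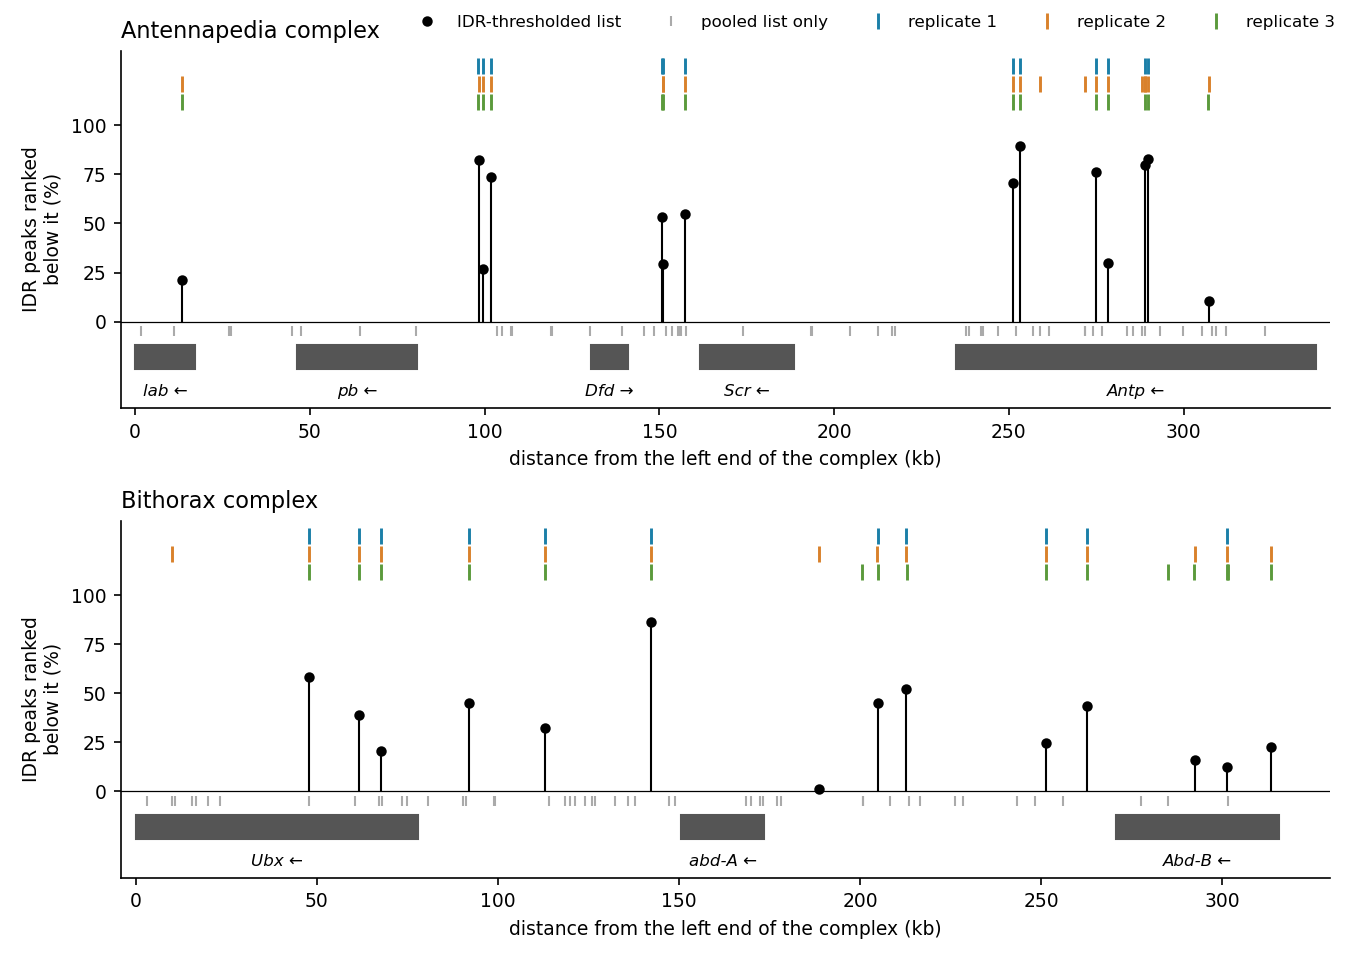
Summits along both complexes (x axis, kb from the left end of each; grey boxes, Hox genes, arrows giving their direction). Black stems are the 28 IDR summits, their height the share of IDR peaks ranked below each, coloured ticks the 7717 strongest peaks of each library, and small grey ticks the remaining summits of the pooled list. Stems cluster in Antp and are missing from pb, Dfd, Scr and abd-A.

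Where the summits lay along the complexes differed from the genome at large. Over all 7717 IDR summits, 41.8% were within 500 bp of a start site, called promoter summits here. In the Antennapedia complex 2 of 14 were promoter summits, 10 lay in introns and 2 between genes, and in the bithorax complex none of 14 was a promoter summit, 12 lay in introns, 1 in a non-coding exon and 1 between genes. None lay in coding sequence or in an untranslated region in either complex. Introns made up 54.1% and 65% of the bases of the complexes, against 39.5% of the arms, and sequence near start sites 13.2% and 9.09%, against 13.6%. Both complexes thus have about as much or somewhat less start-site sequence than the arms, and more intron.

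Set against the sequence available, counted in bases whether they map uniquely or not, the shortfall lay near start sites. Within 500 bp of a start site, the strongest peaks of the 3 libraries reached 4.47, 6.71 and 4.47 summits per 100 kb in the Antennapedia complex, against 18.1, 16.4 and 18.5 in the rest of the arms. All 3 values stood below all 3 of the rest, with a mean log2 ratio of -1.78 ± 0.43 (SD, n = 3; exact sign-flip permutation test, two-sided, p = 0.25). The Antennapedia densities rest on few summits, 2, 3 and 2 in 44.7 kb. These were the summits of bcd and Ama in every library and one at Antp in replicate 2. In the bithorax complex the 29.6 kb near start sites held none of the strongest peaks in any library and no IDR summit.

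Farther from every start site no such shortfall was seen by the same count of bases. The strongest peaks reached 3.41, 5.12 and 4.09 summits per 100 kb in the Antennapedia complex and 3.72, 5.07 and 5.41 in the bithorax complex, against 3.84, 4.1 and 3.77 in the rest of the arms, in replicates 1, 2 and 3. The log2 ratios were 0.09 ± 0.25 and 0.26 ± 0.29 (SD, n = 3), higher in 2 of 3 libraries and lower in replicate 1 for both (exact sign-flip permutation test, two-sided, p = 0.75 and 0.5). The spread between libraries exceeds the first difference and is about as large as the second. The split by distance was chosen after the data had been seen. It was not repeated with length counted in unique 31-base words. That count moved the ratios over the whole complexes to -0.60 and -0.61, so how it would move those away from start sites was not tested.

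**Figure D3:**
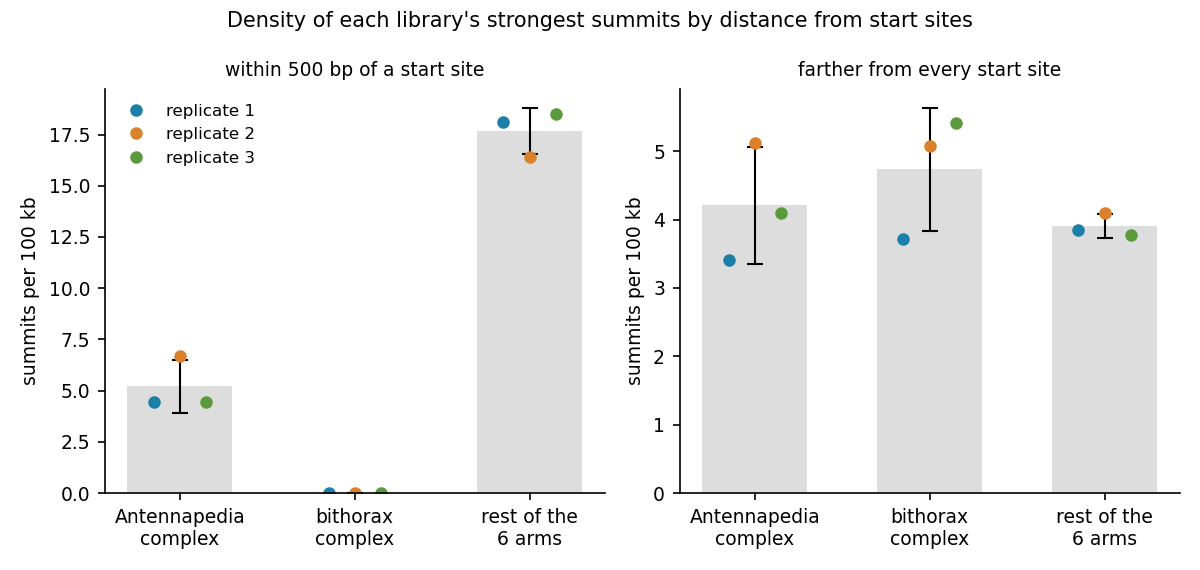
Summits per 100 kb (y axis) among the 7717 strongest peaks of each library, within 500 bp of a start site (left) and farther away (right), for each complex and the rest of the 6 arms. Points are libraries, bars their mean and error bars the SD. Near start sites the Antennapedia points lie at 4.47 to 6.71 and the bithorax points at 0, against 16.4 to 18.5 elsewhere; away from start sites the ranges overlap.

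Genes in general were seldom bound at their start sites within the complexes. Of 73 annotated genes overlapping them, 3 (4.11%) had an IDR summit within 500 bp of a start site, against 22.3% of all genes. They were bcd, the maternal determinant of the anterior, Ama, which encodes a secreted protein of the immunoglobulin family, and lncRNA:CR45593, which shares the Ama summit. Among protein-coding genes the share was 2 of 20 in the Antennapedia complex and 0 of 9 in the bithorax complex, against 26.4% of all protein-coding genes. The pooled list, with background included, reached 18 of the 73 (24.7%), against 43.4% of all genes. The bcd summit lay 212 bp upstream of its start site at rank 1356 of the IDR list, and ranked 1854, 780 and 1656 in replicates 1, 2 and 3. The Ama summit lay 220 bp upstream of one of its start sites, at rank 2042, and ranked 2019, 2479 and 1721. Both ranks fall within the first 10% of every library's list, so neither rests on a single library.

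The next question was whether the Hox genes carried CG31627 at their own start sites. None of the 8 had an IDR summit within 500 bp of any of its annotated start sites, against 22.3% of all genes and 33.6% of 1865 protein-coding genes at least as long as the shortest Hox gene. The count was still 0 with windows of 1000 bp, and reached 1 with 2000 bp, for Abd-B. With 250 bp it could only be 0. The nearest IDR summit lay 1.5 kb from a start site of Abd-B, 3.48 kb from one of Antp, 3.76 kb from one of lab and 9.98 kb from that of Ubx. It lay 15.3 kb from abd-A, 17.6 kb from pb, 20.5 kb from Dfd and 29.7 kb from Scr. The median over the 8 genes was 12.6 kb, against 4.69 kb over all genes and 1.9 kb over the long protein-coding genes. Promoter windows of the 8 genes held at least 99.7% unique 31-base words. These genes lie in only a pair of complexes. They are too few to set the count of 0 apart from the shares of all genes and of long genes, and no test was made.

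The libraries placed the nearest strong summit alike for pb, Dfd, Scr and Ubx, where the 3 distances differed by under 0.1 kb. For pb they were 17.6 kb in all 3, for Dfd 20.4, 20.5 and 20.5 kb, for Scr 29.7, 29.8 and 29.7 kb and for Ubx 9.99, 9.98 and 9.97 kb. They disagreed for lab, at 81.1, 3.75 and 3.83 kb, since replicate 1 lacked the intronic summit among its strongest. They disagreed too for abd-A, at 29.2, 15.3 and 27.2 kb, and for Antp, at 3.5, 0.279 and 3.5 kb, where replicate 2 alone had a strong summit at a start site. For Abd-B they were 2.29, 1.51 and 1.5 kb.

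**Figure D4:**
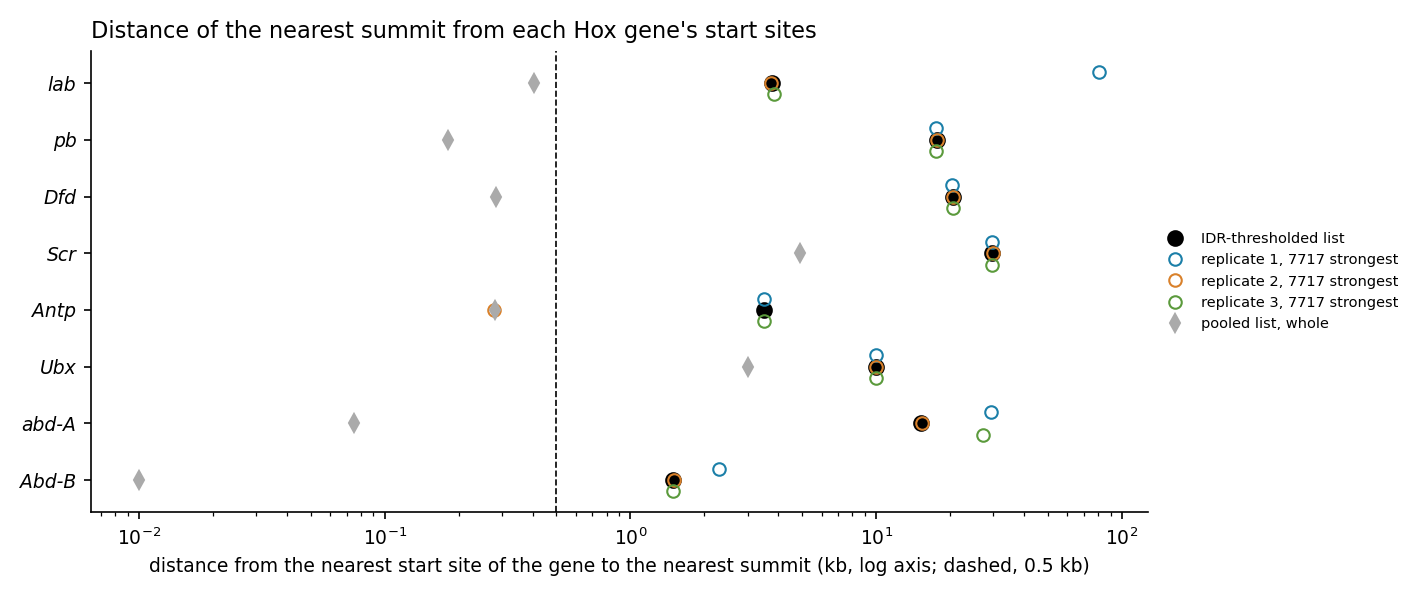
Distance in kb (log axis) from each Hox gene's start sites to the nearest summit. Black, IDR list; open circles, the 7717 strongest peaks of each library; grey diamonds, the whole pooled list; dashed line, 0.5 kb. All black points lie right of the line, between 1.5 and 29.7 kb, and 6 grey diamonds lie left of it.

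Weak summits did lie at Hox start sites. In the pooled list, lab, pb, Dfd, Antp, abd-A and Abd-B had one within 500 bp, 6 of 8 against 43.4% of all genes. The whole lists of the libraries gave 4, 4 and 5 of 8, against 47.5%, 37.7% and 43.5% of all genes in replicates 1, 2 and 3, and no test was made on 8 genes. Antp had the strongest, 280 bp upstream of its most downstream start site, at 6932840. It ranked 8532 of the pooled list, just outside the 7717 kept by IDR (q = 0.00041), and 7784, 6157 and 18501 in the libraries. At Dfd a summit 284 bp upstream ranked 13153 (q = 0.0561), and was listed in replicates 1 and 3, at ranks 10534 and 13216, and not in replicate 2. The remaining 4 genes had pooled ranks from 14182 (lab) to 20146 (Abd-B) and q values from 0.109 to 0.559. Scr and Ubx had no summit at a start site in any list, their nearest in the pooled list lying 4.91 and 3.01 kb away.

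Within the gene bodies, 4 of 8 Hox genes held an IDR summit, against 13.2% of all genes and 54.2% of the long protein-coding genes, which are the fairer measure for genes of this length. The 14 summits in Hox gene bodies equal in number the 14 between the genes, at 4.15 and 4.3 per 100 kb.

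At the anterior end, lab, which specifies part of the head and acts in the midgut, is 17.2 kb long (FBgn0002522, chr3R:6661427-6678590). It held 1 IDR summit, in an intron 3.76 kb downstream of a start site, at rank 6067. The ranks in the libraries were 8196, 5057 and 5434, so replicate 1 has it outside its strongest 7717. To the left of it no IDR summit followed for 218 kb, most of that beyond the complex. Counted by number, 0.506% of gaps between neighbouring IDR summits were as long.

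The genes pb, Dfd and Scr, which shape the mouthparts and other parts of the head and, for Scr, the first thoracic segment, had no IDR summit in their bodies (FBgn0051481, chr3R:6707800-6742063; FBgn0000439, chr3R:6791836-6802428; FBgn0003339, chr3R:6823120-6849981). Each lay whole inside a gap between neighbouring IDR summits, of 84.8 kb for pb, 49.1 kb for Dfd and 93.7 kb for Scr. The median gap on the arms was 5.83 kb, and 3.13%, 6.99% and 2.7% of gaps, counted by number, were as long as these. Long gaps cover a larger share of the sequence than of the count. A gap that holds a whole gene is also at least as long as the gene. These shares thus do not say how often a gene lies in such a gap. None of the 3 genes held a summit among the strongest of any library. The whole lists put 1, 4 and 5 summits in pb, 0, 2 and 0 in Dfd and 5, 8 and 3 in Scr, in replicates 1, 2 and 3. The gap around Scr runs through ftz, the pair-rule gene within the complex, whose start site lay 45.6 kb from the nearest IDR summit.

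Antp, which gives the second thoracic segment its identity, held 7 IDR summits in 103 kb (FBgn0260642, chr3R:6896253-6999228), as many as the other Hox genes of both complexes together. This is 6.8 per 100 kb, against 5.77 in the rest of the arms. Of the long protein-coding genes 6.01% had 7 or more. These genes start at 10593 bp, so that share is not matched to the length of Antp. Among the strongest peaks it held 6, 11 and 7 summits, a mean of 8 ± 2.65 (SD, n = 3), with replicate 2 the highest. All 7 are intronic, and 6 of the 7 also lie within CG46458, a gene that overlaps it. The strongest summit of either complex, at 6914561, ranked 821 of the IDR list and 818, 771 and 926 in the libraries. It lies in sequence masked as a repeat. The next strongest in Antp, at 6951329 and 6950281, ranked 1304 and 1564 and lie 1.05 kb apart. The summit nearest to an Antp start site, 3.48 kb upstream of the one at 6932840, ranked 1836, and 1538, 2041 and 2044 in the libraries. The others ranked 2270, 5412 and 6889. The ranks of the leading summits thus agreed closely between the 3 libraries.

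In the bithorax complex, Ubx, which specifies the third thoracic and first abdominal segments, held 3 IDR summits in 77.8 kb (FBgn0003944, chr3R:16656623-16734426), at ranks 3213, 4723 and 6127. The strongest peaks gave 3, 4 and 3. All 3 lie inside the gene away from its start site, the nearest 9.98 kb downstream, in an exon of the antisense RNA asRNA:PS4. This is 3.86 per 100 kb, against 5.77 in the rest of the arms. Among long protein-coding genes, again not matched to its length, 25.5% had 3 or more.

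Further to the right, abd-A, of the middle abdomen, held none in 22.8 kb (FBgn0000014, chr3R:16807214-16830049), and lay whole in a gap of 46.4 kb. By number 7.63% of gaps were as long, a share with the same limit as those given for pb, Dfd and Scr. The whole lists put 8, 3 and 5 summits in it.

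Abd-B, of the posterior abdomen and genitalia, held 3 in 45 kb (FBgn0000015, chr3R:16927212-16972236), at ranks 5956, 6473 and 6756, all in the weaker part of the IDR list. Its strongest peaks numbered 1, 3 and 5 in replicates 1, 2 and 3, a mean of 3 ± 2 (SD, n = 3), with replicate 1 the lowest. The summit at 16970069, 1.5 kb upstream of a start site, was absent from replicate 1 and ranked 5773 and 6166 in the others. It was the single one of the 28 not found in all 3 libraries.

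Between the Hox genes, the summits fell in a few stretches. The space from pb to Dfd held 3, those of bcd and Ama and one 1536 bp upstream of bcd, at rank 5664. The 20.7 kb from Dfd to Scr held 3 as well, 14.5 per 100 kb and the densest stretch of both complexes. A pair of these, at 6812305 and 6812510, lie 0.205 kb apart in an intron of lncRNA:CR42651 (ranks 3603 and 5444). The third, at 6818763, lies 1131 bp upstream of a lysine tRNA gene and ranked 3492. Neither the 29.2 kb from lab to pb, with its cuticle protein genes, nor the 46.3 kb from Scr to Antp held one.

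The 72.8 kb from Ubx to abd-A held 3 IDR summits. Those in bxd, a non-coding RNA transcribed from the regulatory region of Ubx, ranked 4239 and 5233. The one at 16798889, between genes and 1711 bp upstream of lncRNA:CR45750, was the strongest of the bithorax complex at rank 1031, and 1293, 900 and 1027 in the libraries. From abd-A to Abd-B, 97.2 kb held 5, all in introns of iab8, the long non-coding RNA whose precursor carries a microRNA that represses Ubx and abd-A. They ranked 3699, 4224, 4335, 5799 and 7616, the last close to the threshold. In each library 3 of the strongest peaks lay from Ubx to abd-A, and 4, 5 and 5 from abd-A to Abd-B.

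The complexes differed in the ranks of their IDR summits. In the Antennapedia complex 9 of 14 IDR summits were among the 3858 strongest of the IDR list, with a median rank of 2881, and in the bithorax complex 3 of 14, with a median rank of 4978. By library, the median ranks of the same summits were 3146, 2804 and 2704 in the Antennapedia complex and 5061, 4540 and 5902 in the bithorax complex. The bithorax median of replicate 1 is over the 13 summits found there. Every library placed the bithorax median lower, and the ranges of these medians did not overlap. The ranks of single summits did, at 821 to 6889 against 1031 to 7616 in the IDR list, which was made from the same libraries.

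Over the whole library lists, the median percentile of the summits in both complexes was 44.7, 46 and 41.3, where 50 is the middle of a list. The mean was 44 ± 2.44 (SD, n = 3), below 50 in 3 of 3 libraries (exact sign-flip permutation test, two-sided, p = 0.25). For the bithorax complex alone it was 42.3 ± 3.33 (SD, n = 3, p = 0.25 in the same exact test). For the Antennapedia complex it was 48.2 ± 2.26 (SD, n = 3, p = 0.5 in the same exact test), within its spread of the middle. In replicates 1, 2 and 3 the Antennapedia medians were 50.4, 45.9 and 48.3 and the bithorax medians 41.2, 46 and 39.6. Over whole lists replicate 2 thus placed the complexes alike.

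**Figure D5:**
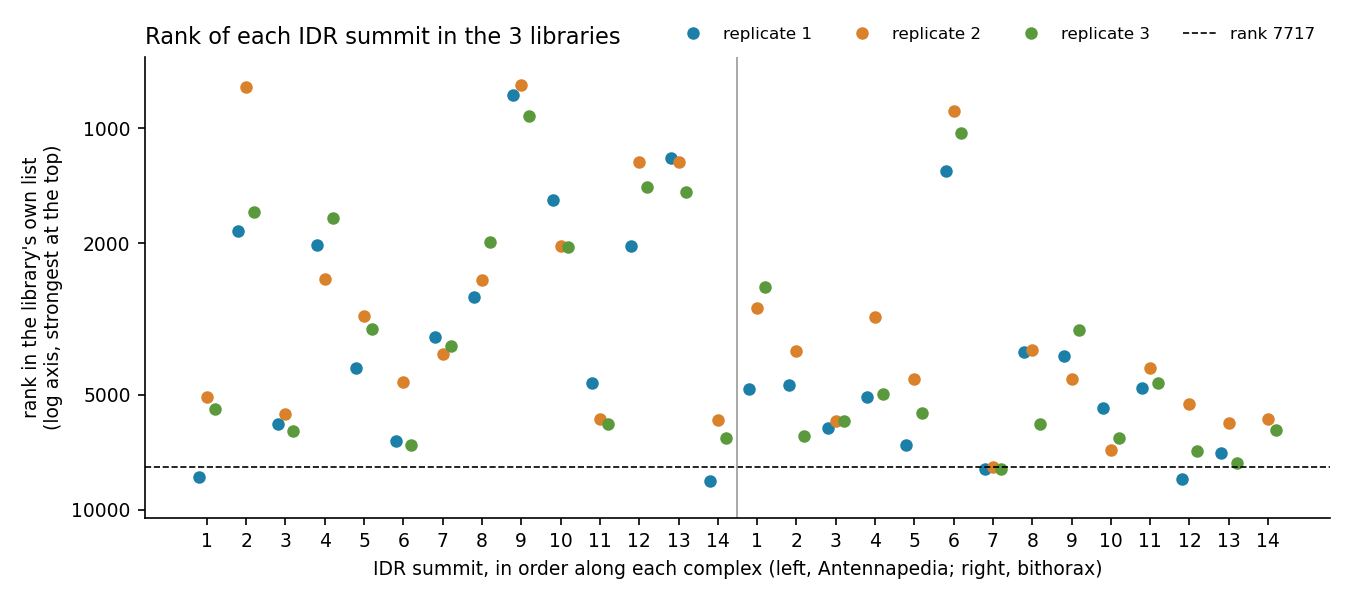
Rank of each of the 28 IDR summits in the list of each library (y axis, log scale, strongest at the top), in order along the Antennapedia complex (left) and the bithorax complex (right). The dashed line is rank 7717. Each library has its highest point of the left panel at the ninth summit (in Antp, 771 to 926) and of the right panel at the sixth (between bxd and abd-A, 900 to 1293), and the last bithorax summit has no point for replicate 1.

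The libraries shared IDR summits in the complexes about as often as elsewhere, in a list that was made from the same libraries. Within 250 bp, 27 of 28 (96.4%) had a summit in all 3 libraries, against 96% of other IDR summits, and 23 (82.1%) were among the strongest of all 3, against 77.5%. The library summits lay a median of 13 bp from the IDR summit. Over the whole pooled list agreement was lower in the complexes: 46 of 132 summits (34.8%) had a partner in all 3 libraries, against 48.7% in the rest of the arms. Below the IDR threshold it was 19 of 104 (18.3%), against 30%. Of the 10 strongest summits just below the threshold, with ranks from 8233 to 9926, 9 were intronic. These lay in lncRNA:CR42651 (rank 8233), 936 bp from the gene of mir-iab-8 (8385), in Ubx (8525), in Antp (8753, 9736 and 9926), in Abd-B (9174 and 9433) and upstream of abd-A (9890), and the tenth was the start-site summit of Antp.

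The sequence under the summits was described for the 6 motifs given above. GAGAG lay in 5 of 28 IDR windows (17.9%), among them the strongest Antp window and that upstream of bcd, against 8.44% of the other IDR windows and 12.8% of windows tiled over the complexes. TGATNNAT lay in 4 (14.3%), against 8.3% of other IDR windows and 7.26% of tiled ones, but at the summits of the pooled list in 9 of 132 (6.82%), below both. TAATTA lay in 2 (7.14%), against 9.18% and 7.54%. GCCAT lay in 2 (7.14%), in bxd and in Abd-B, against 13.9% and 23.2%, while 29 of the 132 pooled-list windows held it (22%). CGATA lay in 2 (7.14%), against 15.4% and 10.8%, and TATCGATA in none, against 1.74% and 0.198%. These are counts of 5 or fewer windows, a description and not a test, and a match is not a site. The windows had a median of 64.4% A and T, against 67.3% in the other IDR windows and 57.4% in tiles of the complexes.

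Upstream of the Hox genes themselves, in the 250 bases before the outermost start site, GAGAG lay at 6 of 8 genes (all but pb and Abd-B), against 25.7% of 13945 protein-coding genes. In the Ubx sequence printed above it recurs several times. GCCAT lay at 5 of 8 (pb, Dfd, Scr, abd-A and Abd-B), against 35.7%, and TGATNNAT at 3, against 16.9%. CGATA lay at Dfd and Ubx, 2 of 8 against 42.6%, and neither TATCGATA (8% of protein-coding genes) nor TAATTA (19.4%) lay at any. Among protein-coding genes bound at a start site the shares were 23.3% for GAGAG, 34% for GCCAT and 51.1% for CGATA.

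The last comparison took the genes that regulate the Hox complexes. Of 20 Polycomb group genes found by symbol, 10 had an IDR summit within 500 bp of a start site, and of 17 trithorax group genes 10, against 22.3% of all genes and 26.4% of protein-coding genes. In the strongest peaks of the libraries the counts were 12, 9 and 10 for Polycomb and 11, 7 and 9 for trithorax genes. The strongest Polycomb summits were those of ph-p, of Polycomb repressive complex 1 (rank 22), Sfmbt, a partner of Pho (rank 1228), E(z), the histone H3 lysine methyltransferase (rank 1258), and Su(z)12, its partner (rank 1696). Those of the genes listed here as trithorax group were at lola (rank 241), brm, the remodelling ATPase (rank 360), and Trl, which encodes GAGA factor (rank 447). The next was at skd, a Mediator subunit (rank 1303). Whether lola, counted among the 10 of 17, belongs to the trithorax group was not checked. Counting IDR summits among the strongest of both other libraries, a stricter demand by construction, the trithorax count was 6 without replicate 1 and 6 without replicate 3. The Polycomb count was 8, 9 and 8 without replicates 1, 2 and 3. A few of the bound genes, from both lists, had no summit of replicate 2 at that site.

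Of 8 genes for cofactors and collaborators of the Hox proteins, cnc alone was bound (12.5%), against the same 22.3% of all genes and 26.4% of protein-coding genes, and 8 genes are too few to set that share apart. Its summit had rank 713 and lay 312 bp from a start site. The Extradenticle gene exd, its partner hth, the trunk selectors tsh and tio, and disco, disco-r and ems had no IDR summit within 500 bp of a start site. Of these hth held 10 IDR summits in its gene body, which is long (chr3R:10507561-10639568). No background matched for length was set beside this count. Of 13 other genes of the Antennapedia complex, 2 were bound (15.4%), bcd and Ama, against the same 22.3% and 26.4%. No test was made on these 13. The genes zen, zen2, ftz and the 8 cuticle protein genes were not bound.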

How the data were processed

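The labels describe 3 biological replicates of a single group, and nothing in them puts the libraries in batches. The deposited dm6 peak lists were used: 1 per library, 1 for the pooled libraries and 1 past the IDR threshold; the dm3 lists and control data were not analysed here. Per the deposited listing, library and pooled lists hold background on purpose, as input to IDR. The deposited signal value is a score of unstated scale, used only to rank peaks within a list, and the q value was deposited by the authors as −log10. For the aligner and the peak caller, names and versions were not given in the sources used here.

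Ranks, distances and counts were computed from summits on 6 arms with Python 3.11.15, numpy 2.4.6, pandas 2.3.3 and scipy 1.17.1, using the Ensembl release 115 annotation and the Release 6 sequence, whose chromosome lengths match dm6. A promoter summit lay within 500 bp of a start site; summits within 250 bp matched between lists. The library lists shared 0 identical intervals. Libraries were compared by exact sign-flip permutation tests, which cannot go below p = 0.25, and these measure only the spread between these 3 libraries. Other results are counts beside their background. Depth is unknown, so no counting intervals are given. Scripts were tested on simulated data.

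The members, gene lists and motifs were chosen with earlier results of these data known. Named are all 8 Hox genes, the genes at or nearest each IDR summit of the complexes, the 10 strongest pooled summits below the threshold and up to 4 bound members of each regulator list with the strongest summits; hth was added after its values were seen. Of the 21 Polycomb group symbols, calypso was not matched. Alternatives were other windows, cut-offs, backgrounds and match distances, and leaving out each replicate.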

Additional observations from a re-analysis of the deposited data

How the results depend on the processing

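Of 85 results recomputed under an alternative, 76 stayed within the limits used, 7 moved beyond them and 2 turned in sign. Some of the 76 could not move. A change of background leaves a count as it is. Narrower windows, fewer start sites or fewer peaks cannot raise the Hox promoter count of 0. The tally is thus not a measure of stability. The limits were the same sign for ratios, a bounded fold for counts, and for motif shares the exact binomial interval of 28 windows, which is wide. Both that turned are the density ratios once sequence within 500 bp of start sites was left out, an alternative chosen after seeing the data: 0.09 for the Antennapedia and 0.26 for the bithorax complex (log2). With 2000 bp windows 1 Hox promoter had a summit. The median A and T share was 62.2% with 100 bases on either side of the summit and 61.4% at pooled-list summits, and the share of windows with GCCAT, 7.14% as reported, was 25% in the former and 22% in the latter. TGATNNAT went from 14.3% to 6.82% at pooled-list summits, and with the longer windows CGATA rose from 7.14% to 14.3%, TAATTA from 7.14% to 14.3% and GAGAG from 17.9% to 32.1%, as longer windows hold more matches by construction. With 250 bp none of the cofactors was bound (0). With the 3858 strongest peaks the density ratios were -0.23 and -1.60, and with whole library lists -0.10 and -0.08. With length in unique 31-base words they were -0.60 and -0.61. Leaving out a replicate put the trithorax count between 6 and 9 and the Polycomb count between 8 and 9. Leaving out each replicate kept the density ratios between -0.59 and -0.30 and between -0.55 and -0.28. For the density and strength ratios no setting could reach a p under 0.25, so these tests say nothing about stability. No rank by p value could be made, because the lists give none. No paired analysis was possible because the libraries form a single group. Unknown depth and whole animals limit what a missing summit means: it was not detected here.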
